A study of Mus musculus with 12 samples.

Results

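The 10 genes described here encode the main proteins with which mouse cells present peptides to T cells, and they were taken by symbol from the 23183 gene symbols listed for each library. They are H2-Aa, H2-Ab1, H2-Eb1, H2-DMa, H2-DMb1, Cd74 and Ciita of the MHC class II pathway and H2-K1, H2-D1 and B2m of MHC class I. All 10 were listed in all 12 libraries and all passed the filter on low values. RNA came from the kidney cortex of C57BL/6 mice (male C57BL/6N mice of 6 to 7 weeks in the study's methods) on day 7 after unilateral ureteral obstruction (UUO), the tying of a single ureter. The obstructed kidney (UUO) and the unobstructed contralateral kidney (CL) of the operated mice gave 4 groups of 3 libraries: WT CL, WT UUO, Acot12-/- CL and Acot12-/- UUO. Acot12-/- mice carry a mutant allele of Acot12, an acyl-CoA thioesterase gene, made with an RNA-guided endonuclease and passed through the germline, so that every cell of the animal carries it. All 4 groups come from operated mice, and no kidney of an unoperated mouse was analysed here. The comparisons ask how obstruction changed the presentation genes in each genotype, and whether loss of Acot12 changed them in either kidney.

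MHC class I is a heavy chain, encoded by H2-K1 or H2-D1 in this strain, held by beta-2 microglobulin (B2m). Nearly all nucleated cells carry it, and it shows peptides from inside the cell to CD8+ T cells. MHC class II is a pair of an alpha and a beta chain, here H2-Aa with H2-Ab1. Dendritic cells, macrophages and B cells are known for it, and it shows peptides from endosomes to CD4+ T cells. Cd74, the invariant chain, fills the groove of class II until it reaches the endosome, where H2-DM, a dimer of H2-DMa and H2-DMb1 or H2-DMb2, helps to exchange the remaining piece of it for peptide. Ciita is the coactivator without which class II genes are hardly transcribed, and interferon gamma is known to raise it in many cell types, tubule cells of the kidney among them. H2-Eb1 encodes the beta chain of a further class II molecule whose alpha chain gene is defective in mice of the b haplotype, to which C57BL/6 belongs. That alpha chain gene, H2-Ea-ps, was listed at 0 in all 12 libraries.

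Positions are those of GENCODE vM21 on GRCm38. Of the 10 genes, 7 lie in the MHC on chromosome 17. From low to high coordinates they are H2-K1 (chr17:33996017-34000347, minus strand), H2-DMa (chr17:34119541-34139101, plus), H2-DMb1 (chr17:34153072-34160230, plus), H2-Ab1 (chr17:34257689-34269419, plus), H2-Aa (chr17:34282744-34287823, minus), H2-Eb1 (chr17:34305867-34316674, plus) and H2-D1 (chr17:35262730-35267499, plus). Ciita lies at chr16:10480059-10528418 on the plus strand, B2m at chr2:122147686-122153083 on the plus strand and Cd74 at chr18:60803848-60812652 on the plus strand. An exon of H2-DMa overlaps Brd2 and an exon of Ciita overlaps Dexi, in both cases on the opposite strand, and Cd74 holds the gene of a microRNA, Mir5107, on its own strand. The library kit keeps strand, but the sources used here do not say whether the counting used it.

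Because class II genes are known for a shared arrangement of short promoter motifs and class I genes for another, the 180 bases before the start of 6 members are shown. RefSeq promoters on GRCm38.p6 were found for 7 of the 10 members. Of H2-K1, which has 2 in the table, the first is shown. The seventh member, H2-DMa, also has 2 and is not shown: of the motifs listed next, 1 of them held the letters of the interferon-stimulated response element and neither held another. Each sequence runs 5′ to 3′ on the strand of its gene and ends just before the RefSeq start site, from which positions are counted. This start can differ from the GENCODE start. The window of H2-D1 lies within the GENCODE gene given above, and that of H2-DMb1 runs into it. Capitals mark letters searched for in every window and on both strands: CTNGNAACT (letters of the class II X box), TGACG (the core of a cAMP response element), GATTGG or its complement (the inverted CCAAT of the Y box), GGGATNCCC (the core of a kappa B site) and TTTCNNTT or its complement (letters of an interferon-stimulated response element). These letters were chosen after the promoters had been read, so that a match among them is a description and no test.

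The class II promoters are those of H2-Aa (chr17:34287824-34288003, minus strand), H2-Eb1 (chr17:34305687-34305866, plus) and H2-DMb1 (chr17:34153011-34153190, plus):
H2-Aa: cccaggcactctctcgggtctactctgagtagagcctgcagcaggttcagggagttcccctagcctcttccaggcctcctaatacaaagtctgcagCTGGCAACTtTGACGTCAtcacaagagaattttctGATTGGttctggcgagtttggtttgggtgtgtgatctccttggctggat
H2-Eb1: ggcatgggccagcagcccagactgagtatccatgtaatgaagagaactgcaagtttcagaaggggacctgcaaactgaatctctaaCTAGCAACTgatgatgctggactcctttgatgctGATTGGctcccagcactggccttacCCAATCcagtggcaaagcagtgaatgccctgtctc
H2-DMb1: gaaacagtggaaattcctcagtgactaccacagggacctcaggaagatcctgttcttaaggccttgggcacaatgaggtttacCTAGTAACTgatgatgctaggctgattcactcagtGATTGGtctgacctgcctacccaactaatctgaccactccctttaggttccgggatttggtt

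The class I promoters are those of H2-K1 (chr17:34000348-34000527, minus), H2-D1 (chr17:35262914-35263093, plus) and B2m (chr2:122147507-122147686, plus):
H2-K1: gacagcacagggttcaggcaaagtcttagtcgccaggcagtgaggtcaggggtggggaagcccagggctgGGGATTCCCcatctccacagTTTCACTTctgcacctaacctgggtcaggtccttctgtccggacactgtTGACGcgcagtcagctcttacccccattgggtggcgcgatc
H2-D1: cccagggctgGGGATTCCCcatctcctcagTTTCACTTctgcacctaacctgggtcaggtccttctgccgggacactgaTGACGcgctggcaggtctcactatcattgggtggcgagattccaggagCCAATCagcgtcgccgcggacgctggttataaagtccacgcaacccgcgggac
B2m: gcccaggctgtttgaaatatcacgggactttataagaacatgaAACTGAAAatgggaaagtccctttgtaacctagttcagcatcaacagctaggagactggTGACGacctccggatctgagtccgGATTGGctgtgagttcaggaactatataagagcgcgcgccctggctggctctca

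CTNGNAACT stood in the 3 class II promoters shown, though not in those of H2-DMa, from -84 to -76 in H2-Aa, -94 to -86 in H2-Eb1 and -97 to -89 in H2-DMb1, with GATTGG downstream of it in each. It stood in none of the 3 class I promoters and in 2.43% of the 32851 promoters of the table. GGGATNCCC stood in H2-K1 and H2-D1 and in 0.548% of all promoters, which is 180 of them. TTTCNNTT was present in H2-K1, H2-D1 and B2m (15.1% of all promoters), and TGACG in those 3 and, in 2 overlapping copies on opposite strands, in H2-Aa (14.8%). GATTGG was found in 5 of the 6 promoters shown and in 12.2% of all. It was absent from the H2-K1 promoter shown, but the second H2-K1 promoter, not shown, held 1 match.

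Values are FPKM, fragments scaled by transcript length and library size, so that levels of different genes can be set side by side. The library size behind the scaling, recovered from the steps between low values, was 12490000 to 16250000 fragments in CL and 18750000 to 23120000 in UUO libraries. It equals the sequenced depth only if no further scaling factor was applied, which the sources used here do not say. Tests used limma on log2(FPKM + 1) over 13243 genes, and a gene was called at an adjusted p under 0.05. Differences on this scale understate those of genes at low FPKM. Acot12 itself had 73.8, 52.7 and 78.1 FPKM in WT CL, 9.98, 16.7 and 21.2 in WT UUO, and in Acot12-/- mice 9.14, 9.01 and 6.80 in CL against 3.28, 1.80 and 3.86 in UUO, and each Acot12-/- library lay below each WT library of the same side. The library Acot12-/- CL replicate 2 stood apart from its group. In it 1916 of the genes tested (14.5%) lay more than 1 log2 unit from the mean of the other two replicates, against 305 (2.30%) and 566 (4.27%) when replicate 1 or 3 was compared in the same way. For the 10 genes, calls that rest on this library are given with and without it. Those of the marker lists are given only with it. The labels do not say that same-group samples came from separate animals, so the p-values measure the spread between these samples, which may in part be technical.

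The presentation genes were among the more abundant transcripts of the cortex even without obstruction, with the exception of Ciita and the H2-DM genes. In WT CL kidneys the mean level ran from 0.900 FPKM for Ciita to 717 for B2m. The median rank among the 13243 genes tested, counted from the highest level, was 195 for B2m, 587 for Cd74, 652 for H2-K1, 700 for H2-D1, 969 for H2-Aa, 1367 for H2-Ab1 and 1720 for H2-Eb1. H2-DMb1 (rank 5392) and H2-DMa (8309) lay far below the class II chains that they serve. In WT UUO kidneys B2m ranked 45, Cd74 68 and H2-K1 97. Bulk RNA cannot tell more cells of a type from more RNA per cell, and this holds for every difference below.

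**Figure D1:**
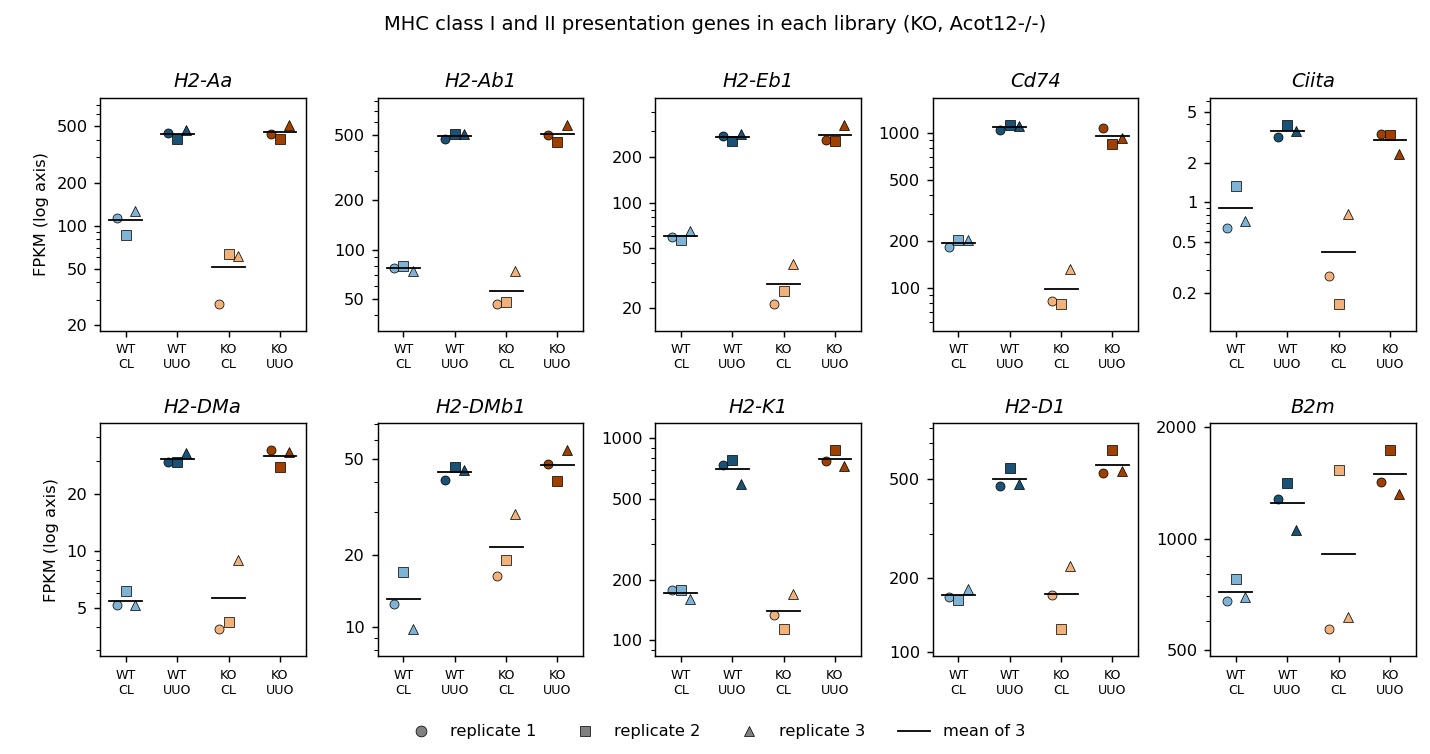
FPKM of the 10 genes in each of the 12 libraries, on a log axis of its own for each gene; symbols give the replicate, colours the group and bars the mean of 3 libraries. The UUO libraries lie above all CL libraries of their genotype for every gene but B2m, for which Acot12-/- CL replicate 2 (1536 FPKM) lies among the UUO libraries.

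After obstruction the RNA of all 7 class II genes rose in both genotypes. H2-Aa, the alpha chain, had 113, 86.2 and 126 FPKM in WT CL and 444, 405 and 468 in WT UUO, and in Acot12-/- mice 28.4, 63.2 and 61.4 in CL against 436, 403 and 507 in UUO. The lowest UUO library was thus above the highest CL library in each genotype. The log2 difference between UUO and CL was 2.02 (SE 0.27, adjusted p = 0.000113) in WT and 3.19 (SE 0.27, adjusted p = 3.26e-06) in Acot12-/- kidneys. On the linear scale the mean was 4.05 times as high in WT UUO as in WT CL and 8.80 times as high in Acot12-/- UUO as in Acot12-/- CL.

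H2-Ab1, the beta chain that pairs with H2-Aa, had 77.4, 79.4 and 74.6 FPKM in WT CL and 474, 507 and 507 in WT UUO. Its values in Acot12-/- kidneys were 46.9, 48.1 and 74.0 in CL and 497, 454 and 576 in UUO. CL and UUO did not overlap in either genotype, and the WT CL values were close to each other. The log2 difference was 2.67 (SE 0.18, adjusted p = 1.99e-06) in WT and 3.18 (SE 0.18, adjusted p = 3.12e-07) in Acot12-/- kidneys, a 6.43-fold and a 9.04-fold higher mean.

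H2-Eb1, the beta chain without a partner in this strain, moved with the other two class II chains. It had 59.0, 56.4 and 64.8 FPKM in WT CL, 276, 255 and 283 in WT UUO, and in Acot12-/- mice 21.4, 26.1 and 39.2 in CL against 261, 256 and 327 in UUO. Again no CL library reached the level of a UUO library. Its log2 difference was 2.16 (SE 0.20, adjusted p = 1.39e-05) in WT and 3.27 (SE 0.20, adjusted p = 4.05e-07) in Acot12-/- kidneys.

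Cd74, the invariant chain, was the most abundant of the 7 class II genes in every group. Its FPKM was 183, 203 and 203 in WT CL and 1042, 1128 and 1112 in WT UUO. In Acot12-/- kidneys it was 83.1, 79.3 and 133 in CL and 1070, 852 and 933 in UUO. The groups did not overlap, and the log2 difference was 2.47 (SE 0.20, adjusted p = 5.24e-06) in WT and 3.29 (SE 0.20, adjusted p = 3.85e-07) in Acot12-/- kidneys. The mean was 5.58 and 9.67 times as high after obstruction.

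Ciita, the coactivator, was low throughout. It had 0.641, 1.34 and 0.720 FPKM in WT CL and 3.17, 3.96 and 3.57 in WT UUO, and in Acot12-/- mice 0.270, 0.166 and 0.820 in CL against 3.37, 3.33 and 2.37 in UUO. These levels correspond to about 14 to 96 fragments in CL and 282 to 485 in UUO libraries, so that counting error alone is largest for the Acot12-/- CL values. Even so the UUO libraries lay above all CL libraries, with a log2 difference of 1.28 (SE 0.20, adjusted p = 0.000259) in WT and 1.52 (SE 0.20, adjusted p = 5.04e-05) in Acot12-/- kidneys. On the linear scale the mean was 3.97 and 7.22 times as high.

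Of the peptide exchange factor H2-DM, the alpha gene H2-DMa had 5.18, 6.13 and 5.18 FPKM in WT CL and 29.6, 29.3 and 32.8 in WT UUO, and in Acot12-/- mice 3.88, 4.25 and 8.94 in CL against 34.0, 27.6 and 33.5 in UUO. It rose by a log2 difference of 2.28 (SE 0.23, adjusted p = 2.05e-05) in WT and 2.36 (SE 0.23, adjusted p = 7.89e-06) in Acot12-/- kidneys, without overlap. The beta gene H2-DMb1 had 12.5, 16.9 and 9.79 FPKM in WT CL and 41.1, 46.2 and 45.3 in WT UUO, and in Acot12-/- mice 16.2, 19.0 and 29.6 in CL against 47.5, 40.5 and 54.4 in UUO. Its log2 difference was 1.71 (SE 0.23, adjusted p = 0.000115) in WT and 1.13 (SE 0.23, adjusted p = 0.00132) in Acot12-/- kidneys, the smallest among the class II genes there.

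H2-DMb2, a neighbouring second beta gene of H2-DM, is not among the 10 but shares sequence with H2-DMb1: 27.2% of the 50-base windows and 13.7% of the 100-base windows of the longest H2-DMb1 transcript occur in another gene, H2-DMb2 above all. How reads in such windows were assigned is not given in the sources used here, so the split between both genes is uncertain. As deposited, H2-DMb2 had 0.672, 0.295 and 0.498 FPKM in WT CL and 19.4, 23.8 and 19.5 in WT UUO, and in Acot12-/- mice 1.20, 0.693 and 1.34 in CL against 21.2, 15.0 and 15.3 in UUO. All CL values were low (about 4 to 27 fragments) and all UUO values were above them. The log2 difference, 3.88 (SE 0.18, adjusted p = 1.67e-07) in WT and 3.12 (SE 0.18, adjusted p = 2.99e-07) in Acot12-/- kidneys, was larger than that of any member in WT. The ratio of H2-DMb2 to H2-DMb1 was 0.0175 to 0.0539 in WT CL and 0.432 to 0.514 in WT UUO, and in Acot12-/- mice 0.0364 to 0.0742 in CL against 0.281 to 0.446 in UUO. The sum of both genes depends less on the split, though not free of it, as their longest transcripts have 1404 and 1483 bases. It was 13.5 ± 3.47 FPKM in WT CL and 65.1 ± 4.75 in WT UUO, and 22.7 ± 7.23 in Acot12-/- CL and 64.6 ± 7.95 in Acot12-/- UUO (mean ± SD, n = 3). Whether shared reads were dropped or counted for both genes would also change it.

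The class I heavy chains also rose with obstruction. H2-K1 had 179, 177 and 161 FPKM in WT CL and 737, 782 and 595 in WT UUO, and in Acot12-/- mice 134, 114 and 170 in CL against 773, 874 and 732 in UUO. The groups were well apart, and the log2 difference was 2.02 (SE 0.18, adjusted p = 1.12e-05) in WT and 2.52 (SE 0.18, adjusted p = 1.15e-06) in Acot12-/- kidneys. H2-D1, the second classical heavy chain of this strain, had 167, 162 and 179 FPKM in WT CL and 468, 551 and 477 in WT UUO. In Acot12-/- kidneys it had 170, 124 and 222 in CL and 526, 652 and 536 in UUO. It rose by 1.55 (SE 0.20, adjusted p = 9.93e-05) and 1.76 (SE 0.20, adjusted p = 2.5e-05) on the log2 scale, again without overlap. Heavy chains of class I resemble each other: 14.3% of the 50-base windows of H2-D1 and 8.1% of those of H2-K1 are found in other genes, and at 100 bases 4.6% and 0%.

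B2m, the light chain, was the most abundant member in each group and moved least. It had 678, 776 and 696 FPKM in WT CL and 1284, 1411 and 1054 in WT UUO, so that every WT UUO library lay above every WT CL library. In Acot12-/- kidneys it had 569, 1536 and 613 in CL and 1424, 1734 and 1322 in UUO, and replicate 2 of the CL group overlapped the UUO group. The log2 difference was 0.79 (SE 0.32, adjusted p = 0.0573) in WT, which did not pass the threshold, and 0.87 (SE 0.32, adjusted p = 0.0361) in Acot12-/- kidneys, which did. Without Acot12-/- CL replicate 2 it was 0.79 (adjusted p = 0.00184) in WT and 1.33 (adjusted p = 0.000138) in Acot12-/- kidneys, and both passed. With the same-numbered CL and UUO libraries of a genotype as a replicate block the WT difference of B2m also passed (adjusted p = 0.0283), as it did with equal total FPKM, no variance trend, only the groups compared, or without Acot12-/- CL replicate 1 or 3. In Acot12-/- kidneys the call was lost when replicate 1 or 3 of CL or any replicate of UUO was left out, and also with only the groups compared, or with no filter on low values, with an adjusted p of at most 0.14 over these fits.

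Counted together, 9 of the 10 genes were called higher after UUO in WT (all but B2m) and 10 of 10 in Acot12-/- kidneys. Of all genes tested, 23.6% were called higher in WT and 26.6% in Acot12-/- kidneys. The median log2 difference of the 10 genes was 2.02 in WT and 2.44 in Acot12-/- kidneys, against 0.01 and -0.01 over all genes tested. Without Acot12-/- CL replicate 2, 10 of 10 were called in each genotype. By class, the median was 2.16 for the 7 class II genes and 1.55 for the 3 class I genes in WT and 3.18 and 1.76 in Acot12-/- kidneys. All 10 UUO groups in WT, and all but that of B2m in Acot12-/- kidneys, lay above CL without overlap, as did 35.5% and 27.8% of all genes tested. Scaling every library to the same total FPKM brought the median of all genes to 0.62 in WT and 0.45 in Acot12-/- kidneys, and all 10 genes were then called higher in both. Under that scaling 87.6% of the genes called in WT were higher, against 49.7% in the deposited FPKM, and 79.7% against 49.5% in Acot12-/- kidneys. Relative to the shifted median the differences of the 10 genes were 0.91 to 2.78 in WT and 0.97 to 3.39 in Acot12-/- kidneys.

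**Figure D2:**
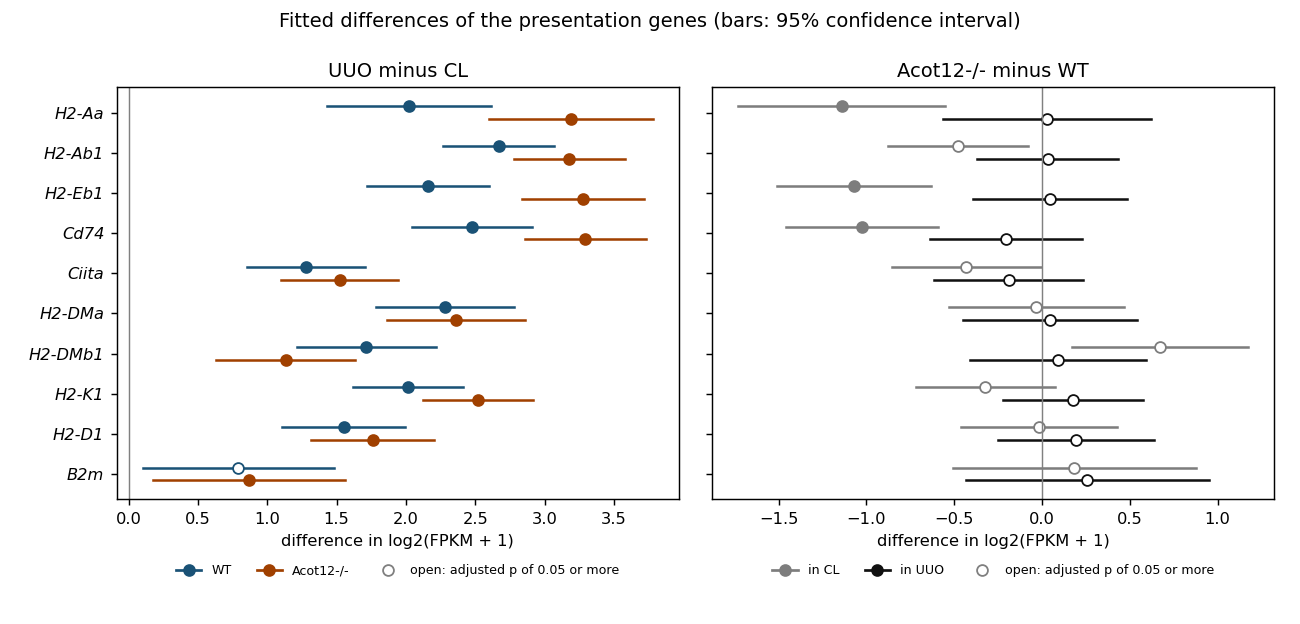
Fitted differences in log2(FPKM + 1) with 95% confidence intervals for the 10 genes, UUO minus CL in WT and Acot12-/- kidneys on the left and Acot12-/- minus WT in CL and UUO kidneys on the right; filled points passed an adjusted p of 0.05. On the left 9 WT and 10 Acot12-/- points are filled and all lie above 0. On the right H2-Aa, H2-Eb1 and Cd74 in CL are filled, at -1.14, -1.07 and -1.03, and the intervals of all 10 genes in UUO include 0.

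Ratios between partner genes within a library do not depend on its scaling. H2-K1 stood to H2-D1 as 0.900 to 1.10 in WT CL and 1.25 to 1.57 in WT UUO, and in Acot12-/- mice as 0.764 to 0.918 in CL against 1.34 to 1.47 in UUO, so that the ratio was higher in every UUO library than in every CL library. B2m to H2-K1 was 3.80 to 4.38 in WT CL and 1.74 to 1.80 in WT UUO. In Acot12-/- CL it was 4.24, 13.5 and 3.62 in replicates 1, 2 and 3, and in Acot12-/- UUO 1.81 to 1.98. Acot12-/- CL replicate 2, with the highest ratio, had the highest B2m of all CL libraries but the lowest H2-K1 and H2-D1. Cd74 to H2-Ab1 was 2.36 to 2.72 in WT CL and 2.19 to 2.23 in WT UUO, and in Acot12-/- mice 1.65 to 1.80 in CL against 1.62 to 2.15 in UUO. H2-DMa to H2-DMb1 was 0.363 to 0.529 in WT CL, 0.635 to 0.724 in WT UUO, and in Acot12-/- mice 0.224 to 0.302 in CL against 0.616 to 0.715 in UUO. These ratios are descriptions and were not tested.

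**Figure D3:**
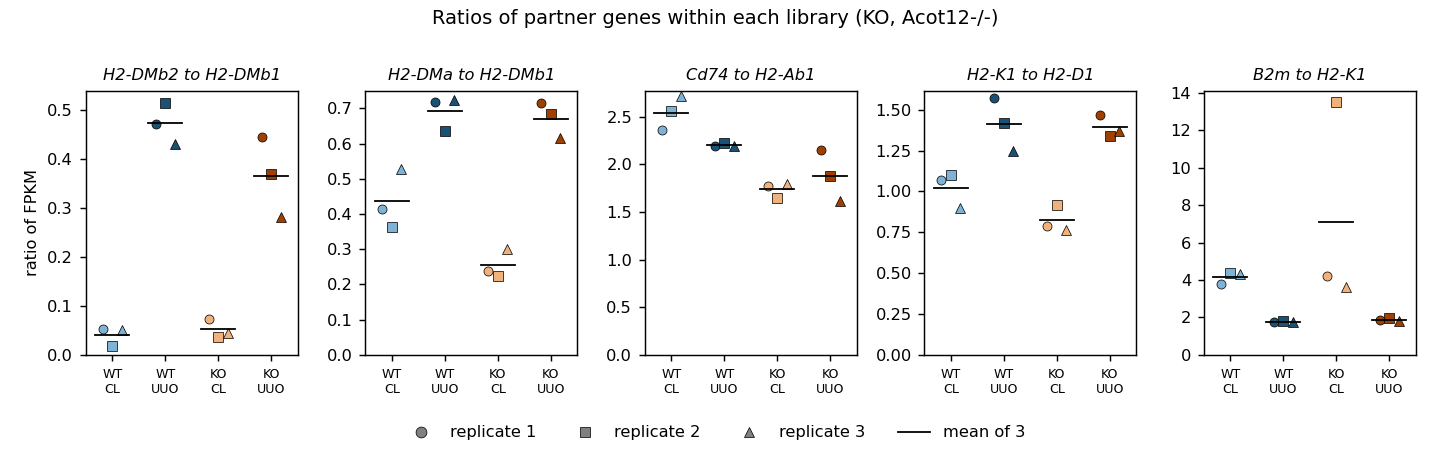
Ratio of the FPKM of 2 partner genes within each of the 12 libraries, with axes that start at 0; symbols give the replicate, colours the group and bars the mean of 3 libraries. H2-DMb2 to H2-DMb1, H2-DMa to H2-DMb1 and H2-K1 to H2-D1 are higher in all UUO than in all CL libraries, and B2m to H2-K1 is 13.5 in Acot12-/- CL replicate 2.

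The other genes of the presentation pathways were described from 5 lists, on which 72 further genes were present in the files. Class II processing comprised H2-DMb2, the modulator H2-O, endosomal proteases, the thiol reductase Ifi30, ubiquitin ligases of class II and tetraspanins. Of its 10 genes tested, 5 were called higher and 1 lower in WT UUO. Over all genes tested 23.6% were called higher in WT and 26.6% in Acot12-/- kidneys. The rises were led by H2-DMb2, by Ctss (cathepsin S, which trims the invariant chain; log2 difference 2.44, SE 0.35, adjusted p = 0.000189) and by Cd82, a tetraspanin (0.86). The ligase March8 was lower (-0.83), as were 23.9% of all genes tested; with equal total FPKM its difference was -0.11 (adjusted p = 0.602). In Acot12-/- kidneys 5 were higher, led by Ctss (3.75, SE 0.35, adjusted p = 6.79e-06), H2-DMb2 (3.12) and Cd82 (1.05). March8 (-1.09) and the protease Lgmn (-1.02) were the 2 called lower, where 27.2% of all genes were called lower. With equal total FPKM March8 and Lgmn had -0.55 (adjusted p = 0.0169) and -0.47 (adjusted p = 0.0738). Ctss had 24.3, 20.6 and 21.1 FPKM in WT CL and 132, 109 and 130 in WT UUO, and in Acot12-/- mice 5.57, 22.3 and 11.7 in CL against 124, 183 and 202 in UUO. In both genotypes each UUO library was above each CL library.

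Of 14 genes of peptide supply and loading of class I tested, 10 were called higher, 0 lower and 4 not called in WT UUO, where 23.6% of all genes were called higher. Tap2 and Tap1, which form the transporter that brings peptides into the endoplasmic reticulum, rose by 2.32 (SE 0.24, adjusted p = 2.71e-05) and 1.75 (SE 0.21, adjusted p = 5.4e-05) on the log2 scale, and Tapbp (tapasin, which bridges it to class I) by 1.63. In Acot12-/- kidneys 10 were called higher, 2 lower and 2 not called, where 26.6% of all genes were called higher and 27.2% lower. The rises were led by the immunoproteasome subunits Psmb8 (2.65, SE 0.28, adjusted p = 1.33e-05) and Psmb9 (2.55) and by Tap2 (2.50). The chaperones Canx (-0.70) and Calr (-0.64) were called lower there, but with equal total FPKM they had -0.15 (adjusted p = 0.569) and -0.10 (adjusted p = 0.68). Tap2 had 7.50, 7.87 and 7.22 FPKM in WT CL and 45.2, 46.3 and 34.6 in WT UUO, and in Acot12-/- mice 6.65, 3.68 and 9.74 in CL against 36.8, 42.7 and 41.3 in UUO. The gap between CL and UUO was wider than the range within any group. Nlrc5, the coactivator of class I genes, which the rule for named genes did not choose, had a log2 difference of 1.01 (adjusted p = 0.000939) in WT and 1.45 (adjusted p = 5.08e-05) in Acot12-/- kidneys.

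Of 15 further class I heavy chains and class I-like molecules tested, 7 were called higher and 1 lower in WT and 11 higher and 1 lower in Acot12-/- kidneys. Over all genes tested 23.6% were called higher and 23.9% lower in WT, and 26.6% and 27.2% in Acot12-/- kidneys. Rises in WT were led by H2-Q4 (1.64), the lipid-presenting Cd1d1 (1.50) and H2-M2 (1.31), and in Acot12-/- kidneys by H2-Q4 (2.16), H2-M3 (2.11), which presents formylated peptides, and Procr (1.55), the endothelial protein C receptor. The gene that fell was Azgp1, a secreted class I-like glycoprotein, with -3.22 (SE 0.55, adjusted p = 0.000575) in WT and -2.76 (SE 0.55, adjusted p = 0.00118) in Acot12-/- kidneys. H2-M5 and Cd1d2 were listed at 0 in all CL libraries, and H2-T3 in every library but WT CL replicate 1 (0.038 FPKM).

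Regulators of MHC transcription were split: of 17 tested, 9 were called higher and 1 lower in WT, and 8 higher and 2 lower in Acot12-/- kidneys. The shares of all genes tested were 23.6% higher and 23.9% lower in WT, and 26.6% and 27.2% in Acot12-/- kidneys. Irf1, an interferon-induced activator of class I and Ciita promoters, rose by 1.88 (SE 0.23, adjusted p = 6.29e-05) in WT and 2.27 (SE 0.23, adjusted p = 1.09e-05) in Acot12-/- kidneys. Spi1 (PU.1, a factor of myeloid cells) rose by 1.70 and 2.64 and the interferon gamma receptor chain Ifngr2 by 1.69 and 1.64. Nfyc, a subunit of the factor that binds the Y box, had -0.39 in WT and -0.45 in Acot12-/- kidneys, and Jak1 -0.35 in Acot12-/- kidneys; these differences turned to 0.32, 0.08 and 0.18, not called, with equal total FPKM. Of the subunits of the X box factor, which the rule did not choose, Rfx5 had a log2 difference of 1.03 (adjusted p = 0.000354) in WT and 0.84 (adjusted p = 0.00103) in Acot12-/- kidneys, and Rfxap and Rfxank passed in neither genotype. Ifng, the interferon itself, was too low to be tested, with 0 to 0.167 FPKM in CL and 0.167 to 0.458 in UUO libraries.

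Costimulators, the second signal that presenting cells give to T cells, were called higher in 3 of 4 tested in WT and in 4 of 4 in Acot12-/- kidneys. Over all genes tested these shares were 23.6% and 26.6%. Cd40 rose by 1.54 (SE 0.15, adjusted p = 1.8e-05) and 2.26 (SE 0.15, adjusted p = 6.65e-07) in WT and Acot12-/- kidneys, Cd86 by 0.80 and 1.71 and Icosl by 0.74 and 1.51. Pdcd1lg2 was listed at 0 in all CL libraries, and Cd80 in all 3 Acot12-/- CL libraries.

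**Figure D4:**
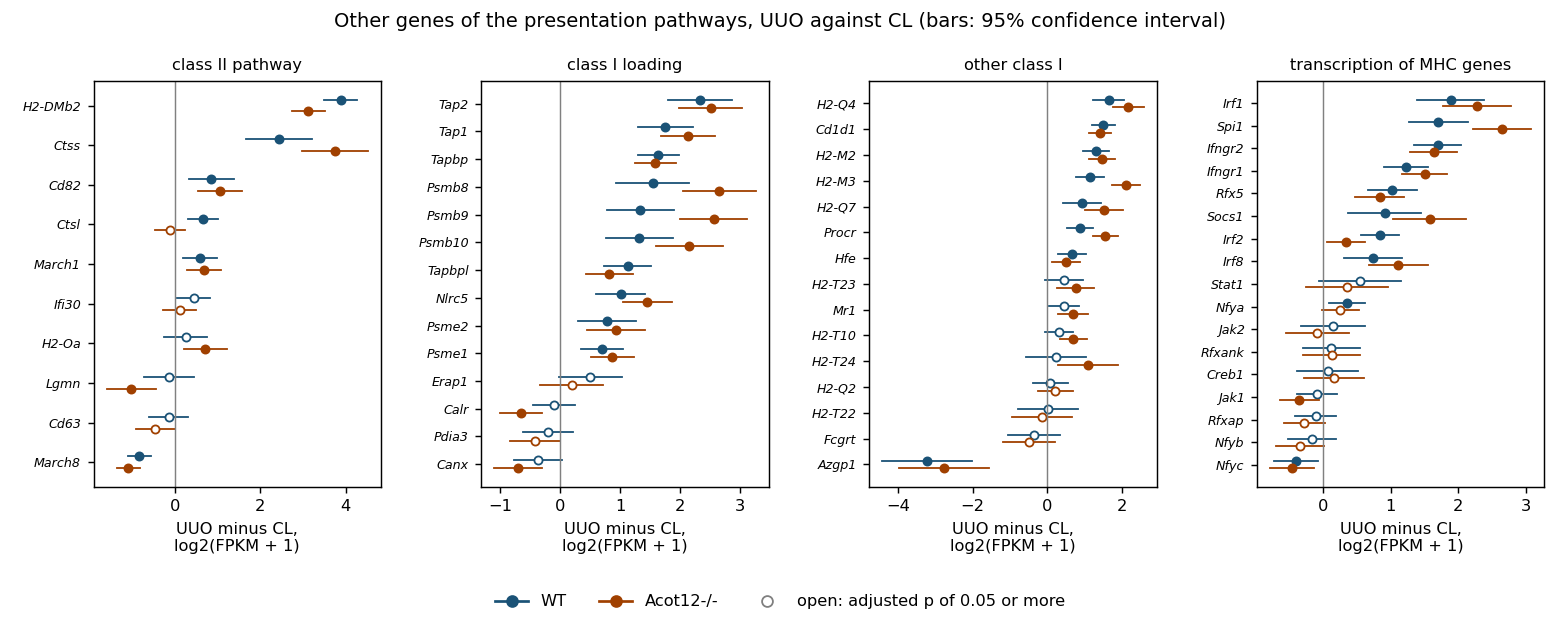
Fitted UUO minus CL differences in log2(FPKM + 1) with 95% confidence intervals for the genes tested of 4 pathway lists, in WT and Acot12-/- kidneys; filled points passed an adjusted p of 0.05. H2-DMb2 (3.88 in WT) and Ctss (3.75 in Acot12-/- kidneys) have the highest values plotted, and Azgp1 (-3.22 in WT) has the lowest; each list has an axis of its own.

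Markers of cells that carry MHC moved with obstruction in the same libraries. The counts in this paragraph stand beside shares of all genes tested. These were 23.6% called higher and 23.9% lower in WT, and 26.6% and 27.2% in Acot12-/- kidneys. Of 10 macrophage markers 9 were called higher in WT and 10 in Acot12-/- kidneys, led in WT by Lyz2 (3.13), Mrc1 (2.42) and Ms4a7 (2.23) and in Acot12-/- kidneys by Lyz2 (4.19), C1qa (3.66) and C1qc (3.62). Their summed level was 164 to 189 FPKM in WT CL, 680 to 829 in WT UUO, and in Acot12-/- mice 56.1 to 125 in CL against 742 to 988 in UUO. Of 7 dendritic cell markers tested 5 and 7 were called higher, led by Cd209a (2.08), Clec10a (1.96) and Sirpa (1.41) in WT and by Clec10a (2.47), Cd209a (2.15) and Itgax (1.80) in Acot12-/- kidneys. The sum of all 10 on the list went from 24.5 to 34.8 FPKM in WT CL to 69.1 to 78.8 in WT UUO and from 23.4 to 33.1 in Acot12-/- CL to 67.6 to 83.0 in Acot12-/- UUO. T cell markers were called higher in 7 of 8 in each genotype, with sums of 9.62 to 15.5 FPKM in WT CL, 36.2 to 37.6 in WT UUO, and in Acot12-/- mice 2.66 to 4.0 in CL against 15.8 to 26.7 in UUO. They were led by Cd4 (1.54), Cd2 (1.50) and Cd3g (1.35) in WT and by Cd3g (1.92), Cd3d (1.92) and Cd2 (1.49) in Acot12-/- kidneys. B cell markers were near 0, with sums of 1.01 to 4.09 FPKM in CL and 3.57 to 5.82 in UUO libraries, and Fcer2a was listed at 0 in all 3 Acot12-/- CL libraries. Cd79b, the only marker of B cells tested, was called higher in Acot12-/- kidneys (1.36). Of 9 endothelial markers 1 was called higher in WT, Cdh5 (0.50), and 4 lower, led by Emcn (-0.95), Tek (-0.88) and Kdr (-0.73). With equal total FPKM those 3 differences were -0.23, -0.24 and -0.20 and did not pass. After UUO of Acot12-/- kidneys 6 were called higher, led by Plvap (1.66), Cdh5 (1.46) and Pecam1 (1.44), and 0 lower. The endothelial sums were 126 to 164 FPKM in WT UUO and 146 to 187 in Acot12-/- UUO. Markers of the proximal tubule were abundant in CL libraries, with a sum of 3857 to 7979 FPKM against 597 to 2005 in UUO libraries. They were called lower in 8 of 9 in WT, led by Miox (-2.86), Slc22a6 (-2.78) and Lrp2 (-2.40), and in 9 of 9 in Acot12-/- kidneys, led by Slc22a6 (-3.36), Miox (-2.91) and Slc5a12 (-2.58). Injury markers of tubules were called higher in 8 of 8 in each genotype, led by Havcr1 (7.33), Krt20 (5.37) and Vcam1 (4.85) in WT and by Havcr1 (7.24), Lcn2 (5.50) and Krt20 (5.33) in Acot12-/- kidneys. The part of changed cell numbers in the rise of the presentation genes was not tested.

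**Figure D5:**
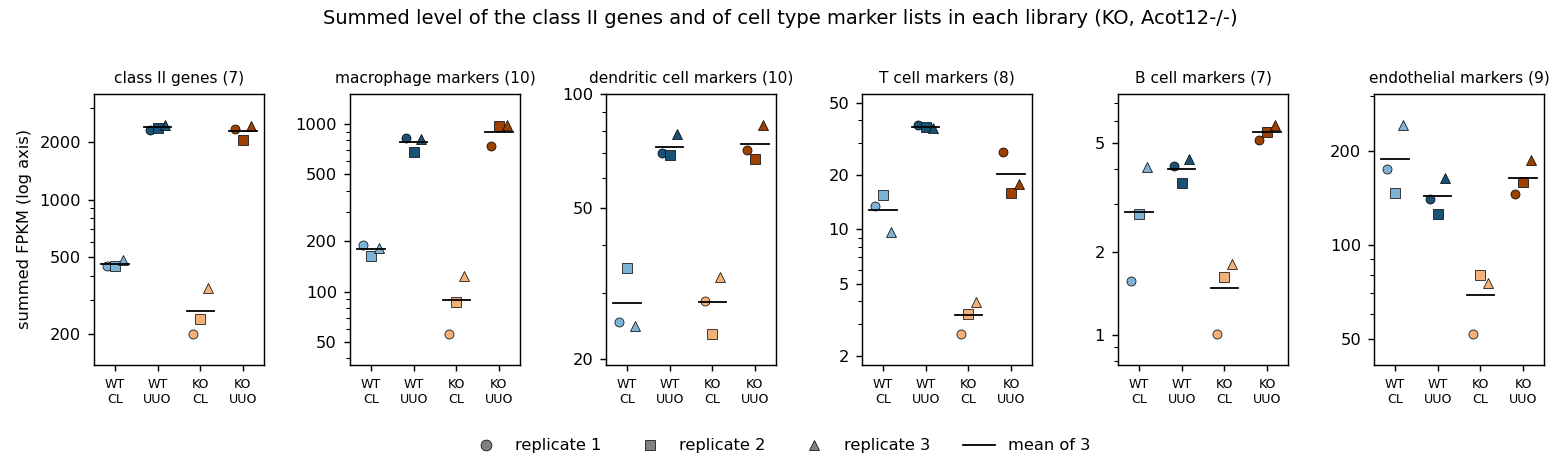
Summed FPKM of the 7 class II genes and of 5 cell type marker lists in each of the 12 libraries, each on a log axis of its own; symbols give the replicate, colours the group and bars the mean of 3 libraries. Class II, macrophage and T cell sums are lowest in the 3 Acot12-/- CL libraries (200 to 347, 56.1 to 125 and 2.66 to 4.0), while dendritic cell sums of both CL groups overlap.

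Between genotypes, the contralateral kidneys differed in 3 of the 10 genes and the obstructed kidneys in none. In CL kidneys H2-Aa, H2-Eb1 and Cd74 were called lower in Acot12-/- than in WT, 3 of 10 where 3.36% of all genes tested were called lower. H2-Aa was 0.470 times as high in the mean, with a log2 difference of -1.14 (SE 0.27, adjusted p = 0.0352). H2-Eb1 was 0.481 times as high (-1.07, SE 0.20, adjusted p = 0.0136) and Cd74 0.502 times as high (-1.03, SE 0.20, adjusted p = 0.0147). For each of them all 3 Acot12-/- CL libraries lay below all WT CL libraries, and the same was true of H2-Ab1 (46.9 to 74.0 against 74.6 to 79.4 FPKM), whose difference of -0.48 (SE 0.18, adjusted p = 0.19) did not pass. Of all genes tested, 9.73% lay below without overlap in this comparison. The summed level of the 7 class II genes was 450, 450 and 484 FPKM in WT CL and 200, 240 and 347 in Acot12-/- CL. On the linear scale the mean of Ciita was as low, 0.465 times that of WT CL, but its groups overlapped, and its difference of -0.43 on the log2(FPKM + 1) scale (95% CI -0.85 to -0.01, adjusted p = 0.282) did not pass. At under 1 FPKM that scale understates it, and with a pseudocount of 0.1 it was -1.09 (adjusted p = 0.168). The mean was 0.731 times as high for H2-Ab1. The H2-DM genes had ratios of 1.03 for H2-DMa (log2 difference -0.03, 95% CI -0.53 to 0.46) and 1.66 for H2-DMb1 (0.67, 0.17 to 1.18, adjusted p = 0.137).

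None of the class I genes passed in CL kidneys. H2-K1 differed by -0.32 (95% CI -0.72 to 0.07), H2-D1 by -0.02 (-0.46 to 0.43) and B2m by 0.18 (-0.51 to 0.87). Without Acot12-/- CL replicate 2 these values were -0.19, 0.20 and -0.28, and none passed. The intervals are wide enough to hold changes of moderate size in either direction for B2m and H2-D1.

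The 3 calls in CL kidneys were close to the threshold. They held without Acot12-/- CL replicate 2. The differences were -1.34 (adjusted p = 0.00956) for H2-Aa, -1.02 (adjusted p = 0.00997) for H2-Eb1 and -0.89 (adjusted p = 0.0113) for Cd74. In that fit 2923 of all genes tested were called, 52.7% of them higher. The main fit called 593, of which 25% were higher. Calls in both directions were thus more common without this library, and the 3 genes stood out less. All 3 calls were lost when WT CL replicate 1, WT CL replicate 3 or Acot12-/- CL replicate 1 was left out, and only that of H2-Eb1 was left without WT CL replicate 2. The highest adjusted p over these fits was 0.127 for H2-Aa, 0.0549 for H2-Eb1 and 0.063 for Cd74. The call of H2-Aa was also lost without any single WT UUO replicate and without Acot12-/- UUO replicate 1 or 3 (adjusted p of 0.0503 to 0.0584), and without the filter on low values (0.0562). Leaving out Acot12-/- CL replicate 3 gave 4 calls, with H2-Ab1 added (adjusted p = 0.024). When the CL groups alone were fitted, none was called (adjusted p = 0.181, 0.107 and 0.11), and 1 gene was called among all tested, against 593 in the fit of all 4 groups.

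Markers of macrophages, T cells and endothelium were lower in the same Acot12-/- CL libraries. Over all genes tested 3.36% were called lower in this comparison. Of 10 macrophage markers 4 were called lower (most of all C1qc -1.36, C1qa -1.33 and Lyz2 -1.16) and 9 of 10 differences were negative, with the sums given above. Of 8 T cell markers 5 were called lower, most of all Cd3d (-1.54), Cd3g (-1.38) and Cd8b1 (-1.21). Of 9 endothelial markers 7 were called lower, led by Emcn (-1.59), Plvap (-1.54) and Pecam1 (-1.15), with sums of 147 to 242 FPKM in WT CL and 51.9 to 80.0 in Acot12-/- CL. None of the 7 dendritic cell markers tested was called, although 6 of 7 differences were negative and 4 had an unadjusted p under 0.05, and their sums overlapped. Markers of the proximal tubule went the other way. None of the 9 was called, but all 9 differences were positive (median 0.52) and 3 had an unadjusted p under 0.05. Their sums overlapped, at 3857 to 5267 FPKM in WT CL and 4952 to 7979 in Acot12-/- CL. Within the pathway lists, the lysosomal proteases Lgmn (1.09, adjusted p = 0.0398) and Ctsl (0.88, adjusted p = 0.0119) were higher in Acot12-/- CL, as was Irf2 (0.53) and as were 1.12% of all genes, and Cd40 (-0.79), Spi1 (-0.82), H2-M3 (-0.72), Icosl (-0.72) and Procr (-0.67) were lower. With equal total FPKM the calls of Spi1 (adjusted p = 0.063), H2-M3 (0.125), Icosl (0.0553), Procr (0.131) and Irf2 (0.21) were lost, as were those of the T cell markers Cd3e (0.082) and Cd2 (0.108) and of the endothelial Cdh5 (0.118). With a library left out the calls numbered 0 to 5 for class II processing, 0 to 4 for other class I molecules, 0 to 3 for regulators of transcription and 0 to 3 for costimulators, and none of these was called with only the groups compared. In that fit 1 gene was called among all tested, so at most 1 call of the macrophage, T cell and endothelial markers was kept. The calls of these markers with a library left out are not given here. No class I loading gene was called of 14 (4 at an unadjusted p under 0.05), and 2 were called without Acot12-/- CL replicate 2. In that fit 2923 of all genes tested were called in this comparison, against 593 in the main fit. The 2 calls therefore do not set the class I loading genes apart. With a library left out the calls of class I loading genes numbered 0 to 3. Some were also made without Acot12-/- CL replicate 3. The part of these cell types in the lower class II RNA was not tested.

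In UUO kidneys 0 of the 10 genes differed between genotypes by limma, with 0 at an unadjusted p under 0.05; over all genes tested 2 were called (0.0151%) and 312 had an unadjusted p under 0.05 (2.36%). The differences of the class II genes ran from -0.21 to 0.09 and those of the class I genes from 0.18 to 0.26 on the log2 scale. The 95% intervals were -0.56 to 0.62 for H2-Aa, -0.37 to 0.43 for H2-Ab1, -0.39 to 0.48 for H2-Eb1, -0.64 to 0.23 for Cd74 and -0.43 to 0.95 for B2m, and 3 libraries a group cannot tell differences within these intervals from 0. All 10 genes overlapped between the genotypes, while 5.5% of all genes tested were higher and 6.48% lower in Acot12-/- kidneys without overlap. Of the other genes on the 5 pathway lists 0 of 60 were called, and 1 had an unadjusted p under 0.05. Macrophage and dendritic cell sums overlapped between the genotypes, while the T cell sums did not (36.2 to 37.6 in WT and 15.8 to 26.7 in Acot12-/- UUO); none of the 8 T cell markers was called, all 8 differences were negative and 6 had an unadjusted p under 0.05.

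Whether obstruction raised the genes by different amounts in the genotypes was tested by the interaction. No member passed (0 of 10, where 0.106% of all genes were called, which is 14; 3 members and 1389 of all genes, 10.5%, had an unadjusted p under 0.05). The estimates were positive for 9 of 10, and were 1.17 (SE 0.38, adjusted p = 0.249) for H2-Aa, 1.12 (SE 0.29, adjusted p = 0.13) for H2-Eb1, 0.82 (SE 0.28, adjusted p = 0.277) for Cd74 and 0.51 (SE 0.26, adjusted p = 0.552) for H2-Ab1. H2-DMb1 had -0.58 (SE 0.33, adjusted p = 0.608). The estimates for the class I genes were 0.50 for H2-K1, 0.21 for H2-D1 and 0.08 for B2m. With the replicate block H2-Eb1 passed (1.12, adjusted p = 0.0457), and without Acot12-/- CL replicate 3 H2-Eb1 (1.35, adjusted p = 0.0209) and Cd74 (1.06, adjusted p = 0.0381) passed. Without Acot12-/- CL replicate 2 none passed, with an adjusted p of 0.052 for H2-Aa and 0.0505 for H2-Eb1. The larger rises in Acot12-/- kidneys share their CL libraries with the lower CL levels above and are not a separate observation.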

How the data were processed

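RNA from the kidney cortex was sequenced as 12 stranded libraries, 3 in each of 4 groups. The values deposited by the authors are FPKM per gene symbol, a unit read from the steps between low values. The submitters' processing notes name mm10 and edgeR without a role, and the aligner and annotation are not given in the sources used here. From these values log2(FPKM + 1) was computed for the 13271 genes with at least 1 FPKM in at least 3 libraries, less 28 genes at 0 in a library beside at least 10 FPKM in another library of its group. Groups came from the sample labels. limma 3.58.1 in R 4.3.3 (lmFit, and eBayes with a variance trend) fitted all 4 groups in 1 model, tested on simulated data, and p-values were adjusted by Benjamini-Hochberg over the 13243 genes. Python 3.11.15 with pandas 2.3.3, numpy 2.4.6 and matplotlib 3.10.9 made the summaries and plots. Fragment numbers were estimated from the steps, with 76.6% to 80.6% of low values within 0.1 of a whole fragment, and cover counting error only.

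The members and lists were chosen with earlier results of these data known. By a rule applied to every list in each comparison, the text names the called genes at both ends, at most 3 that rose most and 3 that fell most, genes whose lower group was at 0, and the 5 genes nearest in profile to each class. CL and UUO libraries of a genotype share replicate numbers. Deviations from the group means correlated within same-numbered pairs at 0.134, 0.364 and 0.335 in WT and at 0.322, 0.186 and 0.318 in Acot12-/- kidneys. Between differing numbers of a genotype the correlations ran from -0.363 to 0.139. WT UUO replicate 1 correlated about equally with WT CL replicate 2 (0.139) and replicate 1 (0.134), so its pairing is not settled. The numbers were taken as pairs in an alternative fit with a replicate block (limma's duplicateCorrelation, consensus correlation 0.208). The main fit, from which the p-values come unless stated otherwise, had no block. The other alternatives were a pseudocount of 0.1, no filter, median-ratio size factors, equal total FPKM, no variance trend, only the groups compared, the 28 genes kept, and leaving out each library in turn.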

Additional observations from a re-analysis of the deposited data

Results flagged for a closer look

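Of the genes on the marker lists, Tie1, an endothelial receptor kinase, was singled out because its change with obstruction differed between the genotypes by the interaction test. The interaction was 1.38 (SE 0.20, adjusted p = 0.0287 by limma) on the log2 scale. No gene, Tie1 included, passed the interaction with no filter on low values, with equal total FPKM, or without any single WT library, Acot12-/- CL replicate 1 or Acot12-/- UUO replicate 2 or 3. Without Acot12-/- CL replicate 2, 916 genes passed, and whether Tie1 was among them is not given here. Tie1 had 7.96, 7.08 and 9.81 FPKM in WT CL and 7.82, 7.11 and 8.99 in WT UUO. In Acot12-/- mice it had 3.13, 3.33 and 3.69 in CL and 9.58, 10.5 and 10.1 in UUO, so that the Acot12-/- CL libraries were the low ones and did not overlap any other group.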

How the results depend on the processing

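Of the 390 values of the 10 genes under the alternatives that kept all libraries, 372 kept their direction and their side of the threshold, 6 fell below it, 5 passed it and 7 changed sign. Of 600 values with a library left out, 553 kept both, 21 fell below it, 6 passed it and 20 changed sign. In CL kidneys 3 genes were called between genotypes, against 0 with only the groups compared and 0 to 4 with a library left out. In the interaction 0 were called, against 1 with the replicate block and 0 to 2 with a library left out. Beside the calls of B2m in WT and H2-Eb1 in the interaction, the block changed no other call of the 10 genes; over all genes it raised the interaction calls from 14 to 203.

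With equal total FPKM the genotype difference in UUO kidneys was -0.15 for H2-Aa, -0.14 for H2-Ab1, -0.13 for H2-Eb1, -0.12 for H2-DMa and -0.077 for H2-DMb1, where the median of all genes shifted to -0.15, and the interaction was -0.10 for H2-DMa and -0.11 for B2m. Leaving out a library, the UUO difference ran from -0.064 to 0.10 for H2-Aa, -0.061 to 0.11 for H2-Ab1, -0.068 to 0.11 for H2-Eb1, -0.0046 to 0.14 for H2-DMa and -0.0090 to 0.20 for H2-DMb1. The CL difference ran from -0.36 to 0.16 for H2-DMa, -0.22 to 0.20 for H2-D1 and -0.28 to 0.44 for B2m, and the interaction from -0.11 to 0.40 for H2-DMa, -0.0053 to 0.41 for H2-D1 and -0.18 to 0.53 for B2m. None of these sign changes was of a called value, and their cause was not tested. Calls over all genes in CL kidneys were 593, against 1 with only the groups compared, 333 with equal total FPKM and 2923 without Acot12-/- CL replicate 2. That library also raised the interaction calls to 916 when it was left out. With 3 libraries a group, differences in low genes such as Ciita are limited by depth.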

Other observations

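The 5 genes whose profile over the 12 libraries lay nearest to the mean of H2-Aa, H2-Ab1, H2-Eb1 and Cd74, each centred on its own mean, were Anxa2 (annexin A2), Marcksl1, Fcgr3 (a receptor for antibodies on myeloid cells), Cfp (properdin, of the complement system) and Fblim1. Their root mean square distance from it was 0.18 to 0.24 on the log2 scale, among 12699 genes compared, and that of the 4 genes themselves was 0.08 to 0.22. Cfp had a mean of 2.84 FPKM in WT CL, 17.8 in WT UUO, and in Acot12-/- mice 1.27 in CL against 18.2 in UUO. Nearest to the mean of H2-K1, H2-D1 and B2m were Adgrg2, C730036E19Rik, Tpbg, Tapbp and Gpr176, at 0.12 to 0.16. These lay nearer to that mean than the members themselves, which were at 0.38 for H2-K1, 0.19 for H2-D1 and 0.49 for B2m. Of these 5 genes Tapbp, tapasin, had the highest level, with 36.5 FPKM in WT CL and 115 in WT UUO, while the other genes had a mean under 4 FPKM in every group. At such low levels the log2(FPKM + 1) scale understates fold changes, so that nearness on it does not mean a like fold change. Adgrg2 had a mean of 0.217 FPKM in WT CL and 2.61 in WT UUO, against 172 and 705 for H2-K1.

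Of the genes between H2-K1 and H2-D1 on chromosome 17, those of the 5 pathway lists (Tap1, Tap2, Psmb8 and Psmb9 among them) and symbols starting with H2- were left out. The 48 further genes tested there are a set chosen after its values were seen. After UUO 16 (33.3%) were called higher and 6 (12.5%) lower in WT, and 20 (41.7%) higher and 6 (12.5%) lower in Acot12-/- kidneys, against 23.6% and 26.6% of all genes called higher and 23.9% and 27.2% called lower. In CL kidneys 5 (10.4%) were called lower and 1 (2.08%) higher in Acot12-/- than in WT, against 3.36% and 1.12% of all genes.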
